A study of Mus musculus with 6 samples.

Results

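The MHC class II presentation genes described here are the 10 genes H2-Aa, H2-Ab1, H2-Eb1, H2-DMa, H2-DMb1, H2-DMb2, H2-Oa, H2-Ob, Cd74 and Ciita. They were chosen by symbol, and all 10 were found among the 32285 genes counted in each of 2 pools of cells. The cells came from YUMM1.7 tumours, a mouse melanoma grown under the skin of female C57BL/6J mice aged 8 weeks, and were sorted for the leukocyte protein CD45. CITE-seq counted RNA molecules and antibody tags in the same single cells, and the I-A/I-E antibody of the panel supplied the protein readout. All 16 mice carried floxed Nr3c1, the glucocorticoid receptor gene. In the floxed mice, 4 given isotype control and 4 given anti-PD-1, it was the only modified allele. The LysM-Cre mice, again 4 per treatment, had in addition Cre recombinase under the Lyz2 promoter, which is active in macrophages, monocytes and neutrophils. Antibody was given at 12.5 mg/kg from about day 7 for 3 weeks, and tumours were taken on day 28. Each pool held 2 mice of every group.

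MHC class II molecules display peptides from engulfed proteins to CD4 T cells. H2-Aa and H2-Ab1 encode the α and β chains of I-A. H2-Eb1 encodes the β chain of I-E, which C57BL/6 mice do not display because their α chain gene is defective. Cd74 encodes the invariant chain, which guides new class II molecules to endosomes and fills their groove. H2-DM, made of H2-DMa with H2-DMb1 or H2-DMb2, removes the last piece of the invariant chain, and H2-O, made of H2-Oa and H2-Ob, restrains H2-DM. Ciita encodes the coactivator that switches the class II genes on. It binds no DNA itself and is recruited by factors that sit on a conserved X box and Y box ahead of each gene.

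Of the 10 genes, the 8 genes whose symbols begin with H2 lie on chromosome 17 in the GRCm38.p6 assembly (mm10) and Ciita lies on chromosome 16. H2-Aa (ENSMUSG00000036594) spans 34282744 to 34287823 and H2-Ab1 (ENSMUSG00000073421) spans 34263227 to 34269418. H2-Oa (ENSMUSG00000024334) spans 34092379 to 34095234, and Ciita (ENSMUSG00000022504) spans 10480014 to 10531064. Cd74 was left out of the promoter search, and H2-Ab1 and Ciita had no entry in it. RefSeq promoter sequences of the same assembly were matched for 7 genes by symbol. They are shown because 6 of the 8 windows held both boxes as spelled here, while both windows of H2-DMa did not hold the pair. Below, a stretch from 140 to 21 bases before the start of transcription is given on the gene's strand, 5′ to 3′, for the 6 genes that held both letters searched. Capitals mark an X-box core spelled NNAAC and, 30 to 33 bases further on, the Y-box core ATTGG.

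H2-Aa, chr17:34287844-34287963, minus strand: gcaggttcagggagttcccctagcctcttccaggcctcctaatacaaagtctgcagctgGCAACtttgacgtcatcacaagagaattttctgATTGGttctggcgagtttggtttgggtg
H2-Eb1, chr17:34305727-34305846, plus strand: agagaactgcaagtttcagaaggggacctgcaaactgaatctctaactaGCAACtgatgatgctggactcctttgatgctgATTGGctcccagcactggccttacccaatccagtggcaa
H2-DMb1, chr17:34153051-34153170, plus strand: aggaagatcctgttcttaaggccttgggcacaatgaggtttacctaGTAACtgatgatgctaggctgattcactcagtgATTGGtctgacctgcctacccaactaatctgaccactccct
H2-DMb2, chr17:34145109-34145228, plus strand: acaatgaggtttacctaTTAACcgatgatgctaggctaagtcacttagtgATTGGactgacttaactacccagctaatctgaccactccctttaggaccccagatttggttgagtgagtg
H2-Oa, chr17:34092239-34092358, plus strand: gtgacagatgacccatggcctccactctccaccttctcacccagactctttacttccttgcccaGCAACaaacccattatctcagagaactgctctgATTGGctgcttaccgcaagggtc
H2-Ob, chr17:34238765-34238884, plus strand: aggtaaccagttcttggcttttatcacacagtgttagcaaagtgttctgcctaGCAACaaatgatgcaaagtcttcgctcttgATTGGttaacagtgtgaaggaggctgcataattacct

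The pair NNAAC then ATTGG was held on the gene's strand by 6 of the 8 promoter windows of these genes and by 1.15% of 32851 mouse promoter windows of the same 300 bases. On either strand that pair was held by 6 of 8 and by 2.48%. With the X-box core spelled GCAAC, the shares on the gene's strand were 4 of 8 and 0.0944%, whereas ATTGG alone on either strand occurred in 37.4% of all windows. H2-DMb1 and H2-DMb2 share most of their letters here. They are near-identical copies of one gene in much of their length, so the split of counts between them is uncertain. The pairs in the 6 windows lay 30 to 33 bases apart, the same limits as the range searched. H2-DMb1 and H2-DMb2 matched only the NNAAC spelling. The shares are thus a description and no test of enrichment. A match of letters is a description of the sequence and not of a factor's binding.

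Hashtag antibodies assigned 17239 cells to 1 mouse each, from 134 to 3098 cells and from 1546045 to 29701640 gene UMIs (unique molecular identifiers, which count RNA molecules) per mouse. Clusters of cells were named from markers that exclude the 10 genes, which were also left out of the clustering, so the class II genes define no class. The names give 14 classes, and 1232 cells of 6 clusters stayed unnamed. The names are the closest match to markers, and "-like" is left out in what follows. The class called cDC2 (type 2 conventional dendritic cells) also held markers of cDC1 such as Xcr1. The class called intermediate holds clusters whose monocyte and macrophage scores were within 1 log2 unit. Of the assigned cells, 187 shared a barcode with a cell of the other pool. The sort was for CD45, yet 968 cells had fibroblast markers. Nr3c1, the targeted gene, was at 68.6 ± 16.5 CPM in macrophages of floxed isotype and 57.0 ± 4.28 CPM of floxed anti-PD-1 mice, and at 45.3 ± 24.3 and 25.2 ± 5.38 CPM in the matching LysM-Cre groups (n = 4 each). The library labelled LysM-Cre isotype mouse 4 went against its label. Its macrophages had 80.1 CPM of Nr3c1 (491 UMIs), inside the floxed range of 50.7 to 84.5 CPM, whereas the other 7 LysM-Cre mice had 20.1 to 39.6 CPM, below every floxed mouse. In intermediate cells it had 53.4 CPM, inside the floxed range of 46.0 to 65.9 CPM. In monocytes it had 75.3 CPM and LysM-Cre isotype mouse 1 had 91.4 CPM, against 67.2 to 81.4 CPM in floxed mice. The library is kept under its label, and several fitted changes that rest on it are given with and without it. Shares of pooled cells are given only with it. In CD8 T cells the 4 group means lay between 85.2 and 97.8 CPM. Whether the 3′ ends counted lie in the deleted stretch is not given in the labels.

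H2-Ab1 RNA was highest on average in cDC2 cells, followed by intermediate cells, B cells, macrophages and monocytes. Levels are CPM, the UMIs of a gene scaled to 1000000 gene UMIs over the summed cells of one mouse and class, which are counts of transcript 3′ ends not divided by gene length. H2-Ab1 was at 11828 ± 736 CPM in cDC2 cells (SD, n = 7 mice with at least 20 cells) and at 6588 ± 1198 CPM in intermediate cells (n = 15). It was at 2866 ± 1241 CPM in macrophages and 2346 ± 1101 CPM in monocytes (n = 16 each). The cDC2 mice lay above every intermediate mouse, while each later neighbour in the order overlapped the next. Regulatory T cells had 924 ± 552 CPM (n = 9), neutrophils 420 ± 284 CPM (n = 14), CD8 T cells 132 ± 38.9 CPM (n = 15) and NK cells 111 ± 52.5 CPM (n = 14).

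The rare classes were read in mice with at least 5 cells. H2-Ab1 was at 3291 ± 1451 CPM in B cells (n = 8), 2191 ± 2175 CPM in mature dendritic cells (n = 8) and 1218 ± 630 CPM in plasmacytoid dendritic cells (pDC, n = 5). Mature dendritic cells are the Ccr7-bearing form that has taken up antigen and moves to lymph nodes. Their spread was as large as their mean, since single mice ranged from 607 to 7300 CPM.

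Cd74 and Ciita kept nearly the same order. Cd74 was at 21795 ± 1398 CPM in cDC2 cells, 13510 ± 2171 CPM in intermediate cells and 11971 ± 2669 CPM in B cells. Macrophages had 6885 ± 2780 CPM of it and monocytes 5479 ± 2275 CPM. Ciita, the coactivator, was at 449 ± 58.3 CPM in cDC2 cells, 202 ± 74.5 CPM in B cells and 166 ± 39.2 CPM in intermediate cells. Monocytes had more Ciita RNA on average (66.0 ± 30.2 CPM) than macrophages (47.8 ± 26.2 CPM), the reverse of their H2-Ab1 order, but the mice of both classes overlapped. Mature dendritic cells had 28.2 ± 32.9 CPM of Ciita, a lower mean than the 46.1 ± 17.1 CPM of pDC, whose H2-Ab1 mean was the lower one. In NK cells, CD8 T cells, fibroblasts and neutrophils Ciita lay between 4.41 and 9.85 CPM.

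**Figure D1:**
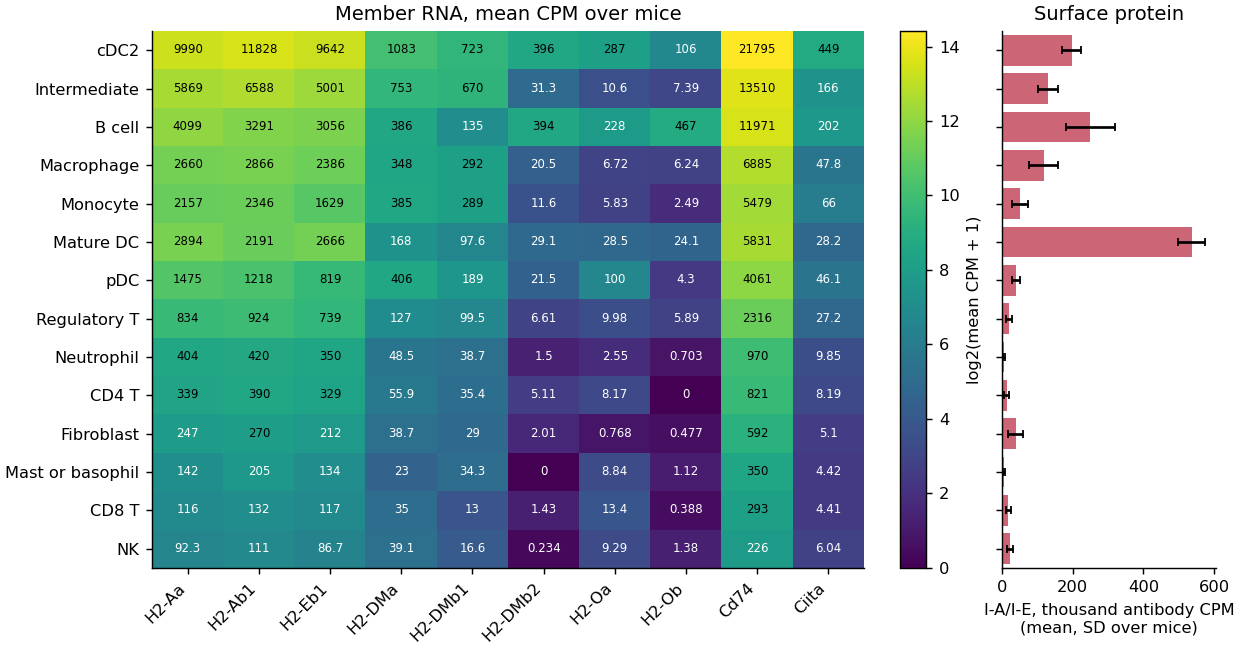
Mean level of the 10 genes in each class (colour, log2 of mean CPM + 1, with the mean CPM written in each cell) and the I-A/I-E antibody in units of 1000 antibody CPM (bars, mean; lines, SD over mice). RNA of H2-Ab1 is highest in cDC2 (11828 CPM), whereas the antibody is highest in mature dendritic cells.

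H2-DM and H2-O separated the classes in another way from the I-A chains. H2-DMb2 was at 394 ± 133 CPM in B cells and 396 ± 112 CPM in cDC2 cells, but at 31.3 ± 8.98 CPM in intermediate cells, 20.5 ± 16.1 CPM in macrophages and 11.6 ± 8.05 CPM in monocytes. H2-DMb1 was the lower copy in B cells (135 ± 57.6 CPM) and the higher copy in cDC2 cells (723 ± 130 CPM), intermediate cells (670 ± 108 CPM) and macrophages (292 ± 82.3 CPM). The balance of the 2 β chains thus differed between B cells and all myeloid classes listed. H2-DMa, their shared partner, was at 1083 ± 62.3 CPM in cDC2 cells, 753 ± 91.2 CPM in intermediate cells, 406 ± 26.1 CPM in pDC and 386 ± 133 CPM in B cells.

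The 2 chains of H2-O did not follow each other. H2-Ob was at 467 ± 167 CPM in B cells and 106 ± 28.3 CPM in cDC2 cells, and at 4.30 ± 9.61 CPM in pDC. H2-Oa was at 228 ± 135 CPM in B cells, 287 ± 42.1 CPM in cDC2 cells and 100.02 ± 39.1 CPM in pDC. Thus pDC had H2-Oa RNA with H2-Ob near 0. In CD8 T cells the H2-Oa mean was 13.4 ± 10.7 CPM against 0.388 ± 0.744 CPM for H2-Ob, and in NK cells the means were 9.29 ± 5.49 and 1.38 ± 1.63 CPM. Macrophages had 6.72 ± 9.28 CPM of H2-Oa and 6.24 ± 6.23 CPM of H2-Ob.

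**Figure D2:**
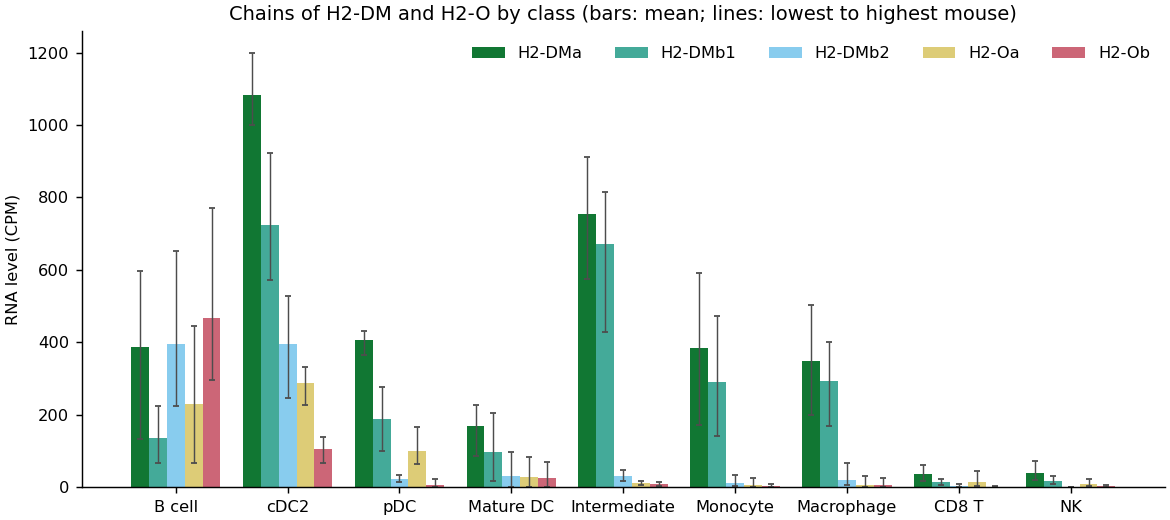
Mean CPM of the chains of H2-DM and H2-O in 9 classes (bars, mean over mice; lines, lowest to highest mouse). B cells have more H2-DMb2 than H2-DMb1 and the most H2-Ob, whereas pDC have H2-Oa with H2-Ob near 0.

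Classes with little class II RNA held it in nearly the proportions of the myeloid classes, with exceptions among H2-O and H2-DM. Relative to H2-Ab1 in the summed cells of a class, Cd74 was at 2.06 in intermediate cells, 2.42 in macrophages and 2.35 in monocytes. It was at 2.16 in CD8 T cells, 2.09 in NK cells, 2.24 in neutrophils and 2.16 in fibroblasts. H2-Aa lay between 0.825 (NK cells) and 0.957 (neutrophils) in these classes. RNA released from other cells in the suspension would add the genes in one shared proportion, and its part in these levels was not tested. H2-Oa left that proportion, at 0.0970 in CD8 T cells and 0.0772 in NK cells against 0.00259 in macrophages and 0.00163 in intermediate cells. H2-DMa did so too, at 0.260 in CD8 T cells and 0.338 in NK cells against 0.134 in macrophages. Mature dendritic cells had 1.41 of H2-Aa and 1.31 of H2-Eb1 per H2-Ab1, and B cells had 1.21 of H2-Aa and 3.54 of Cd74.

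Mature dendritic cells had the most surface class II protein, at a middling level of class II RNA. The I-A/I-E antibody, whose tag is shown because it is the readout of the protein, carried this 15-base tag:

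I-A/I-E antibody tag: ggtcaccagtatgat

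Antibody CPM is the UMIs of this tag scaled to 1000000 UMIs of all surface antibodies in the class, so other antibodies move it as well. In mature dendritic cells it reached 536331 ± 39251 antibody CPM (n = 8), with a median of 1732.5 I-A/I-E UMIs per cell. B cells had 249889 ± 69971 antibody CPM (n = 8, median 202 UMIs per cell), cDC2 cells 197197 ± 26636 (n = 7, median 297), intermediate cells 130662 ± 28485 (n = 15, median 121) and macrophages 117538 ± 41946 (n = 16, median 55). Monocytes had 51368 ± 22185 antibody CPM with a median of 14 UMIs per cell, close to the medians of 5 to 10 in CD4 T cells, CD8 T cells, NK cells, neutrophils and fibroblasts. Per CPM of H2-Ab1, mature dendritic cells had 274 antibody CPM. NK cells had 195, fibroblasts 143 and CD8 T cells 122, on few UMIs of both kinds. B cells had 82.7, against 17.2 in cDC2 cells, 18.6 in intermediate cells, 21.2 in monocytes and 44.8 in macrophages. Among mice with at least 5 cells, the lowest mature dendritic cell mouse (472520 antibody CPM, n = 8) lay above the highest cDC2 mouse (242622, n = 13).

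Across the 14 classes, log2 H2-Ab1 and log2 I-A/I-E had Pearson's r = 0.76 and Spearman's rho = 0.79. Without mature dendritic cells r was 0.81 (13 classes). These values describe 14 points that share the 2 pools, the same 16 mice and unequal depth, and no test was made.

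**Figure D3:**
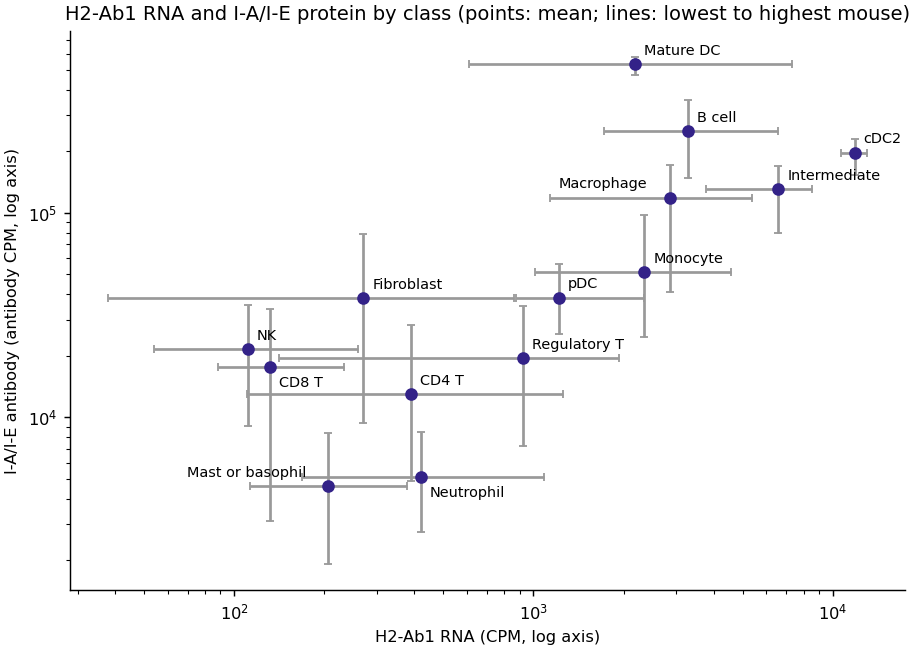
H2-Ab1 RNA (CPM) against the I-A/I-E antibody (antibody CPM) on log axes, with 1 point per class at its mean and lines from the lowest to the highest mouse. Mature dendritic cells stand highest on the protein axis with an H2-Ab1 level (2191 CPM) like that of monocytes (2346 CPM).

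Within the monocyte, intermediate and macrophage classes the clusters spanned a wide range. Cluster 4 of the intermediate class, whose leading genes were class II genes although these were left out of the clustering, had 7944 ± 1333 CPM of H2-Ab1 (n = 15) and cluster 14, led by Cxcl9 and other interferon-induced genes, had 7470 ± 1297 CPM (n = 9). Monocyte cluster 1, led by Ifit genes of the interferon response, had 3533 ± 928 CPM (n = 12). Monocyte cluster 12, led by Nos2, Mmp12 and Inhba, had 1123 ± 590 CPM (n = 7), and monocyte cluster 10, led by Prtn3 and Saa3, had 616 ± 353 CPM (n = 11). The I-A/I-E antibody was at 139345 ± 36774 antibody CPM in cluster 4 and 156006 ± 24012 in cluster 14. The order of these means was the reverse of that for H2-Ab1. For RNA and protein alike the means differed by less than either SD and came from unequal sets of mice, so no order is drawn from them. It was at 16420 ± 9835 antibody CPM in cluster 10. Ciita was at 213 ± 41.6 CPM in cluster 14, 111 ± 46.3 CPM in cluster 1 and 20.2 ± 12.0 CPM in cluster 12. The macrophage clusters lay closer together, at 2443 ± 1114 CPM of H2-Ab1 in cluster 3 (n = 15), 2533 ± 1353 CPM in cluster 15 (n = 11) and 3473 ± 1611 CPM in cluster 17 (n = 6). Cluster 15, led by cell cycle genes, had 14.0 ± 19.3 CPM of H2-Oa and 8.95 ± 7.98 CPM of H2-Ob, against 1.69 ± 1.25 and 2.96 ± 2.68 CPM in cluster 3.

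Genes outside the list that followed H2-Ab1 most closely over the 14 class means (Pearson correlation of log2(CPM + 1), genes of at least 10 CPM) were Ifi30 (0.95), Fgd2 (0.94), Plekho1 (0.93), Spon1 (0.93), Tbc1d9 (0.93), Erp29 (0.92), Ccdc28b (0.91), Ly86 (0.90), Acox3 (0.90) and Gm6377 (0.90). Ifi30 encodes a lysosomal thiol reductase that unfolds antigens. For Ciita they were Acox3 (0.92), Fgd2 (0.91), Spon1 (0.89), March1 (0.88), Ccdc28b (0.88), Erp29 (0.87), Ifi30 (0.87), Plekho1 (0.86), Wdfy4 (0.86) and Ly86 (0.86). March1 encodes a ubiquitin ligase that removes class II from the surface. Among the 10 genes themselves H2-Aa followed H2-Ab1 at 0.99 and Ciita at 0.96, while H2-Ob (0.74) and H2-Oa (0.57) followed it least.

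In macrophages given anti-PD-1, the LysM-Cre mice had higher mean class II RNA than the floxed mice, but no gene passed the test. H2-Aa in macrophages of floxed anti-PD-1 mice 1 to 4 was at 2117, 1109, 1989.9 and 987 CPM. The LysM-Cre mice 1 to 4 had 1980.4, 2957, 3420 and 5091 CPM. Mice 2 and 4 of the floxed group were low, mouse 4 of the LysM-Cre group was high, and the groups overlapped in 1 LysM-Cre mouse, which lay below the 2 higher floxed mice. The log2 change was 1.14 (SE 0.386, edgeR adjusted p = 0.327 over 9550 genes), with a 95% interval from 0.39 to 1.90 before adjustment. The make-up of the class differed between these groups. Cluster 17, the macrophage cluster with the highest mean H2-Ab1 (3473 CPM), held 12.7% of macrophages in floxed and 32.2% in LysM-Cre mice given anti-PD-1, against 17.1% and 22.9% with isotype. Cluster 15 (2533 CPM) held 37.6% and 22.6% with anti-PD-1 and 29.6% and 24.6% with isotype. These are shares of pooled cells, so a mouse with many cells weighs more. The LysM-Cre isotype shares include the library labelled LysM-Cre isotype mouse 4, which gave the most macrophages of any mouse. Shares without that library were not computed. The part of this make-up in the macrophage values was not tested.

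H2-Ab1 was at 2546, 1187, 2333 and 1136 CPM in those floxed mice and at 2270.5, 3168, 3665 and 5388 CPM in those LysM-Cre mice (log2 change 1.04, SE 0.390, edgeR adjusted p = 0.363). Cd74 was at 6890.2, 2958, 5527 and 3132 CPM and at 6354, 7843, 8304 and 12717 CPM in the same order (0.96, SE 0.362, adjusted p = 0.363). Both genes overlapped between the groups through LysM-Cre mouse 1. Ciita was at 42.1, 19.1, 41.9 and 8.79 CPM and at 29.1, 48.3, 81.1 and 85.8 CPM (1.17, SE 0.488, adjusted p = 0.383), again overlapping in that mouse. H2-Eb1 had 1.14 (adjusted p = 0.363), H2-DMa 0.43, H2-DMb1 0.36, H2-Ob 0.44, H2-Oa 0.19 and H2-DMb2 0.16. All 10 fitted changes were positive with a median of 0.70, against 0.0048 over all 9550 genes, of which 50.8% were positive. The signs of H2-Oa and H2-DMb2 turned in some alternatives, to -0.69 and -0.14 without cells that shared a barcode with the other pool. H2-Oa and H2-Ob passed the filter on low counts mainly through isotype mice, which are not compared here, so their signs are a description only. The test called 0 of the 10 genes and 0% of all genes, while 5 of the 10 and 1078 of 9550 had an unadjusted p under 0.05.

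With isotype control no class II gene was called between genotypes either. H2-Ab1 was at 2347, 4129, 3163 and 1624 CPM in macrophages of floxed isotype mice 1 to 4, and at 4058, 3869, 3757 and 1211 CPM in LysM-Cre isotype mice 1 to 4. The lowest level of both groups was in the library labelled LysM-Cre isotype mouse 4, the one whose Nr3c1 was at the floxed level, and the highest was in floxed mouse 2. The groups overlapped with and without that library. The log2 change was 0.26 (SE 0.383, edgeR adjusted p = 0.9998), and that of Ciita was -0.53 (SE 0.438, adjusted p = 0.9998). Of the 10 genes 6 were higher and 4 lower (median 0.06), and 0 of 10 were called, as were 0% of all genes. Without that library the change was 0.54 for H2-Ab1 (SE 0.332, edgeR adjusted p = 0.891), 0.61 for H2-Aa (adjusted p = 0.888), 0.56 for Cd74 (adjusted p = 0.891) and -0.34 for Ciita (adjusted p = 0.952), with 7 of the 10 higher, 3 lower and 0 called, beside 0% of 9429 genes. Averaged over both treatments, H2-Aa had a genotype change of 0.74 (SE 0.270, edgeR adjusted p = 0.535), H2-Eb1 0.77, H2-Ab1 0.65 and Cd74 0.62, each with an unadjusted p under 0.05. So had 816 of all 9550 genes. The 0 calls among the 10 stood beside 0% over all genes. Without the library labelled LysM-Cre isotype mouse 4 these changes were 0.86 for H2-Aa (edgeR adjusted p = 0.197), 0.90 for H2-Eb1, 0.78 for H2-Ab1 and 0.74 for Cd74, again with 0 of 10 called, beside 0.0106% of 9429 genes.

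Anti-PD-1 in floxed mice went with lower mean class II RNA in macrophages, and H2-Ab1 had a log2 change of -0.59 (SE 0.385, edgeR adjusted p = 0.538). All 10 fitted changes were negative, with a median of -0.66 against 0.0015 over all genes. The low-count filter asked for 5.74 CPM in 4 mice, which H2-Oa reached in 5 of 8 isotype and 0 of 8 anti-PD-1 mice. H2-Ob reached it in 3 of 8 and 1 of 8. Both were thus tested mainly through isotype mice, so their signs in the treatment comparisons of either genotype are given as a description only. The test called 0 of the 10 genes and 0.45% of 9550 genes (0 of 10 and 0.997% of 9429 without the library labelled LysM-Cre isotype mouse 4). Ciita, at 42.2, 112, 56.6 and 31.0 CPM in floxed isotype mice, had a log2 change of -1.12 (SE 0.470, edgeR adjusted p = 0.306). H2-DMb2 had -1.22 (adjusted p = 0.285), H2-Aa -0.70 (adjusted p = 0.444) and Cd74 -0.44 (adjusted p = 0.653). H2-DMb1 had -0.10, and its sign turned with a minimum of 50 cells (0.09). In LysM-Cre mice 7 of the 10 changes were positive (median 0.12), H2-Ab1 had 0.19 (SE 0.388) and Ciita 0.58 (SE 0.456), and 0 of 10 genes and 0% of all genes were called. The direction in LysM-Cre mice rested on the library labelled isotype mouse 4, without which 3 of the 10 were positive (median -0.16), with H2-Ab1 at -0.12 (SE 0.339, edgeR adjusted p = 0.9998) and Ciita at 0.37.

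The interaction compares the anti-PD-1 response of the 2 genotypes. All 10 genes had a higher fitted response in LysM-Cre macrophages (median 0.56, against -0.0043 over all genes), with Ciita at 1.71 (SE 0.654, edgeR adjusted p = 0.810), H2-Aa at 0.82 (SE 0.538, adjusted p = 0.851) and H2-Ab1 at 0.79 (SE 0.545, adjusted p = 0.870). H2-Oa and H2-Ob passed the low-count filter mainly through isotype mice, so their signs here are a description only. The interaction called 0 of 10 genes and 0% of all genes. The interval for H2-Ab1, from -0.28 to 1.85, holds both no difference and a response higher by over 1 log2 unit. Without the library labelled LysM-Cre isotype mouse 4 it was 0.50 for H2-Aa and 0.47 for H2-Ab1 (SE 0.459), and Ciita had an edgeR adjusted p of 0.993, with 10 of 10 positive and 0 called, beside 0% of all genes. These comparisons share mice with one another, so their values are not independent.

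**Figure D4:**
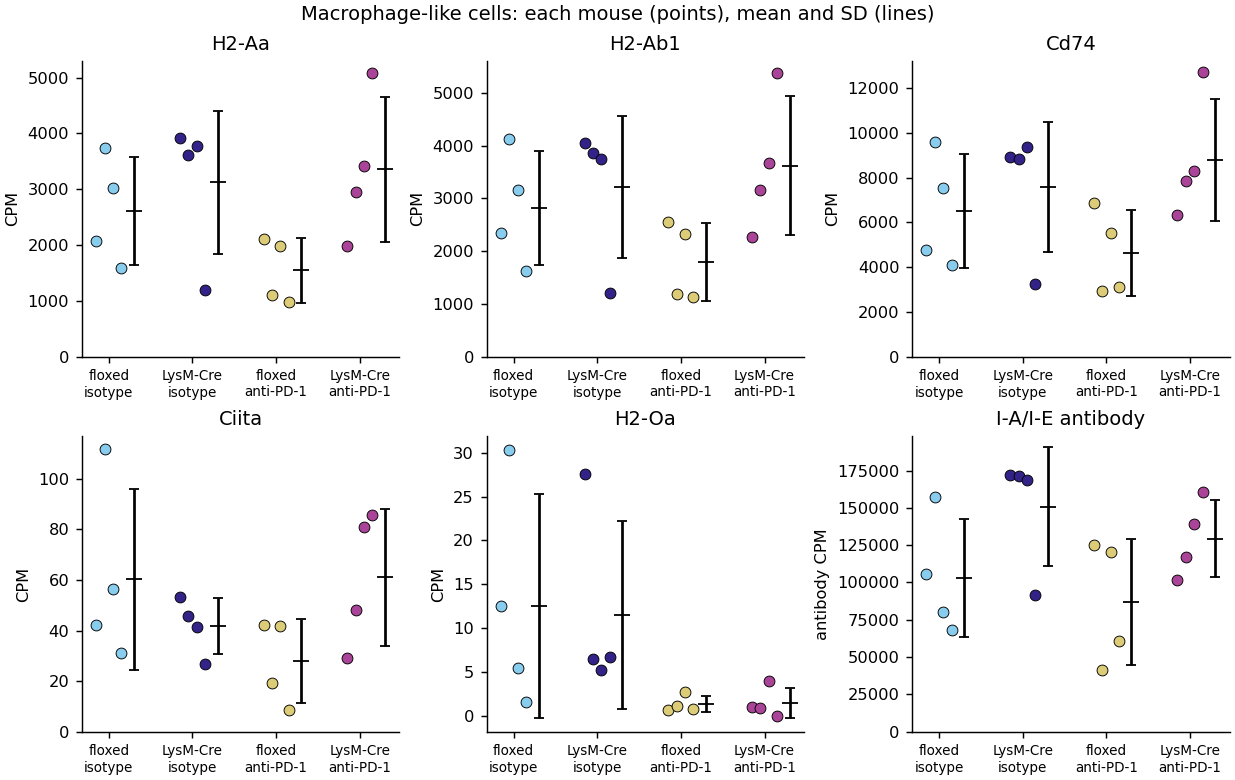
Levels in macrophages of each mouse (points) by condition, with the mean and SD (lines), for H2-Aa, H2-Ab1, Cd74, Ciita and H2-Oa (CPM) and the I-A/I-E antibody (antibody CPM). H2-Aa means are 2604 (floxed) and 3123 CPM (LysM-Cre) with isotype, and 1550.5 (floxed) and 3362 CPM (LysM-Cre) with anti-PD-1, with overlapping mice, and H2-Oa lies at 3.99 CPM or below in every anti-PD-1 mouse.

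H2-Oa, a chain of the H2-DM inhibitor, had a lower mean in macrophages with anti-PD-1, on few molecules. It was at 12.6, 30.3, 5.47 and 1.63 CPM in floxed isotype mice 1 to 4 and at 27.6, 6.54, 5.26 and 6.69 CPM in LysM-Cre isotype mice 1 to 4. With anti-PD-1 it was at 0.765, 1.19, 2.73 and 0.799 CPM in floxed and at 1.004, 0.973, 3.99 and 0 CPM in LysM-Cre mice. The LysM-Cre groups did not overlap, and in floxed mice isotype mouse 4 lay below anti-PD-1 mouse 3. These levels rest on few molecules, 2 to 60 UMIs per isotype mouse and 0 to 6 per anti-PD-1 mouse. Averaged over genotypes H2-Oa fell by 2.78 on the log2 scale (SE 0.555, edgeR adjusted p = 0.0411), in a comparison that called 1 of the 10 genes and 0.545% of all genes. The filter asked for at least 5.74 CPM in 4 mice, which 5 of 8 isotype mice and 0 of 8 anti-PD-1 mice reached. H2-Oa was therefore tested only through the group where it was high, and the call is given as a description only.

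The call of H2-Oa was lost with the margin hashtag rule, where it was -1.04 (adjusted p = 0.397). It was also lost at changes near the reported one, of -2.49 with a minimum of 50 cells (adjusted p = 0.13), -2.80 without a pool term (adjusted p = 0.0538) and -2.78 without Scrublet doublets (adjusted p = 0.0663). The same held without any 1 of 9 mice, namely, with anti-PD-1, LysM-Cre mouse 1 or 2 and floxed mouse 1, 2 or 4, and, with isotype, LysM-Cre mouse 1 and floxed mouse 1, 2 or 3 (changes from -2.84 to -2.38, edgeR adjusted p from 0.0555 to 0.127). The call was kept with DESeq2 (-2.70, adjusted p = 0.00187), and without the library labelled LysM-Cre isotype mouse 4 (-2.73, edgeR adjusted p = 0.0424, beside 0.986% of all genes called). Without the cell-cycle cluster 15, H2-Oa no longer passed the filter on low counts. The other 9 genes had changes from -1.004 (H2-DMb2, adjusted p = 0.256) to 0.07 (H2-DMb1).

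Markers of other cells moved in the same macrophages. The summed level of 6 dendritic cell genes (Cd209a, Flt3, Ccr7, Fscn1, Xcr1 and Clec9a) ranged, in floxed mice, from 12.3 to 46.3 CPM with isotype and from 2.29 to 7.28 CPM with anti-PD-1. In LysM-Cre mice it ranged from 6.98 to 25.1 CPM and from 4.65 to 10.7 CPM. The sum of 8 lymphocyte genes (Cd3e, Cd3d, Cd3g, Trac, Nkg7, Cd79a, Cd79b and Ms4a1) ranged, in floxed mice, from 48.2 to 166 CPM with isotype and from 19.1 to 54.7 CPM with anti-PD-1. In LysM-Cre mice it ranged from 58.6 to 131 and from 20.1 to 104 CPM. Cd79b is also a leading gene of macrophage cluster 17, so the list is not made of lymphocyte genes alone. Without Cd79b the sum of the other 7 ranged, in floxed mice, from 27.0 to 146 CPM with isotype and from 5.99 to 10.8 CPM with anti-PD-1. In LysM-Cre mice it ranged from 18.9 to 52.9 and from 4.29 to 10.7 CPM. With that gene left out, every anti-PD-1 mouse lay below every isotype mouse. All 6 dendritic genes were above 0 in each group, and of the 8 lymphocyte genes only Ms4a1 was at 0, in the LysM-Cre group given anti-PD-1. The cDC2 and B cell levels of H2-Oa given above exceed those of macrophages, and the part of such cells in the H2-Oa change, and in the other class II values of macrophages, was not tested.

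In intermediate cells no class II gene was called between conditions. With isotype, H2-Ab1 was at 6262 ± 1005 CPM in floxed and 6297 ± 1752 CPM in LysM-Cre mice (n = 4 each). With anti-PD-1 it was at 6291 ± 282 CPM in floxed (n = 3) and 7427 ± 1129.5 CPM in LysM-Cre mice (n = 4). Floxed anti-PD-1 mouse 2 had under 20 such cells and was left out. The H2-Ab1 change with genotype was 0.19 (SE 0.179, edgeR adjusted p = 0.753) under anti-PD-1 and 0.04 (SE 0.164) under isotype, and the interval of the former ran from -0.17 to 0.54. Without the library labelled LysM-Cre isotype mouse 4 the change under isotype was 0.22 (SE 0.122, edgeR adjusted p = 0.9998). The test called 0 of the 10 genes in each of the 7 comparisons. The share of all genes called was 0.0545% for genotype over treatments, 0.0218% for genotype with anti-PD-1, 0.109% for treatment over genotypes and 0% for the other 4. Without that library again 0 of 10 were called in each. The shares were then 0.0988%, 0.0879% and 0.011% in the same order, 0.011% for treatment in floxed and 0% elsewhere. The treatment changes in LysM-Cre mice went from a median of 0.16 (7 of 10 higher) to 0.0014 (5 of 10). In the interaction 1 of 10 was then higher, against 5 of 10 with the library. The cluster make-up of this class differed between conditions, and cluster 14 held 36.1% of its cells in the floxed group and 26.5% in the LysM-Cre group given anti-PD-1, against 15.4% and 10.4% with isotype. These are shares of pooled cells, so a mouse with many cells weighs more, and no test was made of them. The LysM-Cre isotype share includes the library labelled LysM-Cre isotype mouse 4.

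Monocytes showed a wide spread between mice within each condition. In floxed mice 1 to 4 H2-Ab1 was at 2658, 2555, 1741 and 3529 CPM with isotype and at 1012, 1411, 2614 and 2639 CPM with anti-PD-1. In LysM-Cre mice 1 to 4 it was at 2582, 1828, 4555 and 1588 CPM with isotype and at 1574, 4587, 1414 and 1248 CPM with anti-PD-1. LysM-Cre isotype mouse 3 and LysM-Cre anti-PD-1 mouse 2 were high in their groups, and all groups overlapped. Of the 10 genes 8 passed the filter on low counts, all but H2-Oa and H2-Ob. All 8 changes with anti-PD-1 in floxed mice were negative (median -0.40, against -0.0036 over all genes), H2-Ab1 having -0.40 (SE 0.419, edgeR adjusted p = 0.721). Over the 7 comparisons 0 of the 8 were called, with or without the library labelled LysM-Cre isotype mouse 4. The share of all genes called was 0.0526% for treatment in floxed, 0.105% for treatment over genotypes, 0.0131% each for treatment in LysM-Cre, genotype with anti-PD-1 and genotype over treatments, and 0% for the other 2. Without that library the share was 0.4% for treatment over genotypes. It was 0.025% each for treatment in floxed, genotype with anti-PD-1 and genotype over treatments, and 0% elsewhere.

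The monocyte clusters with different class II levels also differed in share between conditions. Cluster 12 (1123 CPM of H2-Ab1) held 58.8% of monocytes in floxed anti-PD-1 and 15.2% in floxed isotype mice, and cluster 1 (3533 CPM) held 21.6% and 57.6%. In LysM-Cre mice cluster 12 held 29.3% with anti-PD-1 and 9.87% with isotype. These are shares of the pooled cells of a group, so a mouse with many cells weighs more, and no test was made of them. In floxed anti-PD-1 monocytes, mice 1 to 4 had 280, 13, 70 and 35 UMIs of Nr3c1 at 67.2 to 81.4 CPM. Mouse 1 thus held most of that group's gene UMIs. Shares per mouse were not computed. The LysM-Cre isotype share includes the library labelled LysM-Cre isotype mouse 4.

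In cDC2 cells only the isotype groups had enough mice. H2-Ab1 was at 11306, 10676, 12071 and 12327 CPM in floxed mice 1 to 4 and at 12978, 11733.5 and 11705 CPM in LysM-Cre mice 1, 2 and 4, which overlapped. Its change was 0.11 (SE 0.0982, edgeR adjusted p = 0.9996), with an interval from -0.08 to 0.30, and Ciita had -0.18 (SE 0.136). Without the library labelled LysM-Cre isotype mouse 4 the H2-Ab1 change was 0.21 (SE 0.129, edgeR adjusted p = 0.9999). The test called 0 of the 10 genes and 0% of 6195 genes.

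The I-A/I-E protein was called in no comparison. In macrophages of floxed mice 1 to 4 it was at 105610, 157219, 80538 and 68409 antibody CPM with isotype and at 125211, 41169.7, 120404 and 60575 antibody CPM with anti-PD-1. In LysM-Cre mice 1 to 4 it was at 172038, 171683, 168428 and 91406 antibody CPM with isotype and at 101383, 116851, 139246 and 160442 antibody CPM with anti-PD-1. The LysM-Cre means were higher under both treatments, and the groups overlapped with anti-PD-1. With isotype they overlapped only through the library labelled LysM-Cre isotype mouse 4. The other LysM-Cre isotype mice (168428 to 172038) lay above every floxed isotype mouse (at most 157219). They also lay above every LysM-Cre anti-PD-1 mouse (at most 160442). The genotype change over treatments was 0.61 (SE 0.320, edgeR adjusted p = 0.830 over 87 antibodies), 0.65 with isotype (SE 0.453) and 0.56 with anti-PD-1 (SE 0.453). Without the library labelled LysM-Cre isotype mouse 4 the first of these was 0.74 (edgeR adjusted p = 0.402) and the isotype value 0.93 (SE 0.414, adjusted p = 0.759).

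The treatment change of I-A/I-E in floxed macrophages was -0.04 (SE 0.455), where RNA of H2-Ab1 had -0.59. Antibodies called in macrophages made up 8.05% for treatment in floxed, 24.1% for treatment over genotypes and 0% in the other comparisons. In intermediate cells the largest I-A/I-E change was 0.52 with treatment in floxed mice (SE 0.261, edgeR adjusted p = 0.326), where 3.45% of antibodies were called, against 8.05% for treatment over genotypes and 0% elsewhere. In monocytes I-A/I-E changes ran from -0.34 to 0.30, with 3.49% of 86 antibodies called for treatment over genotypes and 0% elsewhere. In cDC2 cells the change was -0.16 (SE 0.172), with 0% of 67 antibodies called.

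RNA and protein of class II went together across mice. In macrophages of the 16 mice, log2 H2-Ab1 and log2 I-A/I-E had r = 0.86 and rho = 0.88 (permutation test with 100000 resamples, two-sided, adjusted p = 9e-05 and 6e-05 over 6 relations). H2-Aa had r = 0.85 and rho = 0.89, and Cd74 r = 0.86 and rho = 0.87. Without the 2 mice farthest from the median of H2-Ab1, r was 0.78 (permutation p = 0.00094), within pool E5 0.97 and within pool E6 0.81 (exact permutation p = 0.00107 and 0.0235), and after subtracting condition means 0.86. In monocytes r was 0.79 for H2-Aa, 0.74 for H2-Ab1 and 0.80 for Cd74 (adjusted permutation p = 0.00042, 0.00152 and 0.0003), with rho of 0.81, 0.64 and 0.82. For H2-Ab1 in monocytes rho without the 2 extreme mice was 0.51 (permutation p = 0.0636), and r within pool E5 was 0.70 (exact permutation p = 0.0537). The relation joins RNA and protein of the same cells, so cluster make-up and depth of each mouse are shared by both axes.

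**Figure D5:**
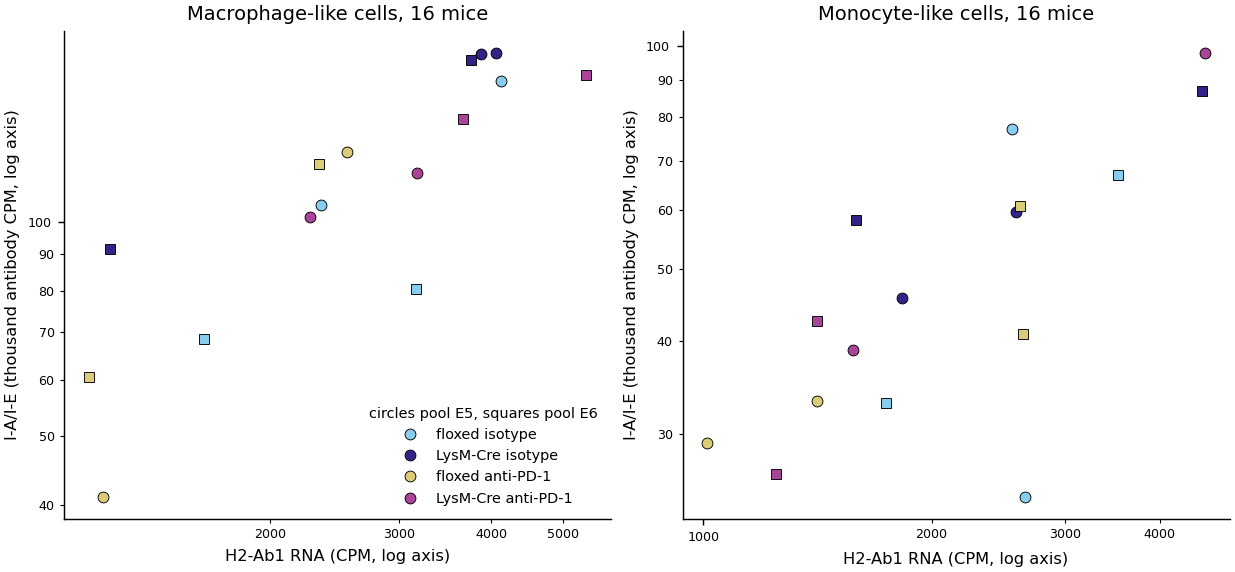
H2-Ab1 RNA (CPM) against I-A/I-E antibody (units of 1000 antibody CPM) on log axes in macrophages (left) and monocytes (right), 1 point per mouse, coloured by condition, circles for pool E5 and squares for pool E6. In macrophages the points follow a line (r = 0.86) along which mice of every condition are spread.

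The share of cells with at least 1 UMI asked whether more cells carried the message. Counts were thinned to 2000 gene UMIs per cell, because depth differed. H2-Ab1 was seen in 64.0 ± 12.6% of macrophages, 53.7 ± 10.5% of monocytes and 83.7 ± 7.96% of intermediate cells, against 18.6 ± 4.14% of NK cells (median depth 9283.5 UMIs, 14443 in macrophages), 23.1 ± 4.21% of CD8 T cells and 34.6 ± 4.86% of neutrophils. Unthinned, the macrophage share was 89.0 ± 6.30%. Ciita was seen in 7.94 ± 4.23% of macrophages, 10.7 ± 4.50% of monocytes and 25.0 ± 5.70% of intermediate cells, against 1.17 ± 0.684% of NK cells. With anti-PD-1, H2-Ab1 was seen in 57.0% of floxed and 72.5% of LysM-Cre macrophages (exact permutation p = 0.114), and Ciita in 4.63% and 11.5% (exact permutation p = 0.0857). None of 24 such tests passed after adjustment (smallest adjusted p = 0.686), and 4 against 4 mice cannot reach a p below 0.02857.

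Other genes of the pathway were read in macrophages from lists of regulators (11 tested), interferon-γ receptor and signalling genes (5), antigen-processing proteases and Ifi30 (6), surface turnover genes (3) and, as a comparator, MHC class I genes (9). None of these genes was called in any of the 7 comparisons, nor in intermediate cells, monocytes or cDC2 cells. In floxed macrophages under anti-PD-1 against isotype, the class I list had a median of -0.61 and the regulators -0.10. Nlrc5, the class I counterpart of Ciita, had means of 25.2 CPM (isotype) and 9.72 CPM (anti-PD-1) (log2 change -1.36, SE 0.328, edgeR adjusted p = 0.0739), and H2-K1, a class I heavy chain, 1650 and 840 CPM (-0.92, adjusted p = 0.0739).

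The kinase Jak2 (39.7 and 17.4 CPM, edgeR adjusted p = 0.0699) and Socs1, a feedback inhibitor of interferon signalling (16.8 and 3.75 CPM, adjusted p = 0.117), were lower on average as well, whereas the protease gene Ctsl had 575 and 779 CPM (0.51, adjusted p = 0.203). Between genotypes under anti-PD-1 the class I list had a median of 0.46, H2-K1 had a log2 change of 0.76 and H2-D1 0.68 (adjusted p = 0.309 each), and Ctss, the protease that cleaves the invariant chain, 0.44 (adjusted p = 0.373). Cd83, whose product keeps class II on the surface, had -0.95 with treatment in floxed mice (adjusted p = 0.268) and 0.67 with genotype under anti-PD-1 (adjusted p = 0.526).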

How the data were processed

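Deposited counts are raw UMIs, in matrices made by Cell Ranger 6.1.2 per the file headers. Version 3.0.1 and the build mm10 are named in the submitters' processing notes. How reads were mapped is not given in the sources used here. Hashtags were tied to conditions by the authors' deposited antibody table, in which Hashtag 8 and Hashtag 9 are printed with the same tag. Mouse numbers only name mice. The files hold 88 surface antibodies (89 are stated in the labels).

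Barcodes needed 500 gene UMIs, 200 genes and at most 10% mitochondrial UMIs. HTODemux (Seurat 5.3.0, quantile 0.99) removed 8307 doublets and 2883 negatives, and doublets within 1 hashtag remain. Clustering used 2000 variable genes, 30 principal components, 15 nearest neighbours and a Leiden resolution of 1.0 (scanpy 1.11.5, leidenalg 0.10.2). The naming rule was set after the data were seen. Counts summed per mouse and class (at least 20 cells, at least 3 mice per condition) entered the quasi-likelihood F test of edgeR 4.0.16 after filterByExpr and TMM, with the pool as covariate. Benjamini-Hochberg adjustment ran over all genes or over all antibodies with a total of at least 100. Genotype changes are LysM-Cre minus floxed, and treatment changes are anti-PD-1 minus isotype. Mice are separate animals, and no 2 of their macrophage profiles were identical. The genes and lists were chosen with earlier results of these data known. All 10 genes are named, other pathway genes where they passed or were among the 3 largest changes of their list, and likeness genes as the 10 highest correlations. Sequences are from RefSeq. The script was tested on simulated data. Alternatives were DESeq2 1.42.0, other scaling, filter, hashtag, doublet, clustering and cell minimum settings, and leaving out each mouse. Fits that left out 1 mouse accepted 2 mice per condition. Results of 1 gene of the pathway lists are not reported here.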

Additional observations from a re-analysis of the deposited data

Results flagged for a closer look

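In groups of 4 mice, a mouse was singled out where its gap to the nearest other mouse took up most of the group's range (Dixon's 95% limit), a rule that chance meets in about 1 in 20 groups, and 64 groups were tested. In macrophages the library labelled LysM-Cre isotype mouse 4 was low in H2-Ab1 (1211 CPM), H2-Aa (1199.8 CPM), Cd74 (3263 CPM) and the I-A/I-E antibody (91406 antibody CPM), which are readouts of the same cells. It also gave the most macrophages of any mouse (421), and its Nr3c1 (80.1 CPM) was at the level of floxed mice. LysM-Cre isotype mouse 1 was high in H2-Oa in macrophages (27.6 CPM, 16 UMIs). In monocytes LysM-Cre anti-PD-1 mouse 2 was high in H2-Ab1 (4587 CPM), H2-Aa (4336 CPM) and Cd74 (10127 CPM). In cDC2 cells floxed isotype mouse 2 was low in H2-Aa (9041 CPM).

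H2-Ab1 was also counted in the 6 unnamed clusters, which enter no comparison. Cluster 26, with markers of CD8 T cells and of monocytes or macrophages together, had 2956 CPM (56 cells), and cluster 25, with red cell and macrophage markers, had 2104 CPM (65 cells). Cluster 24, with a median of 645 UMIs per cell, had 609 CPM (75 cells), and cluster 28, led by Ctsk and Mmp9, had 317 CPM (20 cells). Cluster 11, led by Trdc, had 119 CPM (758 cells), and cluster 19, led by cell cycle genes, had 72.9 CPM (258 cells).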

How the results depend on the processing

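Levels of H2-Ab1 and I-A/I-E by class moved by less than 1 SD with the 10 genes among the variable genes. No paired analysis was possible because the mice of a condition carry no shared numbers in the labels. Alternatives that drop cells seen in both pools, cluster 4, cluster 15 or, from the lymphocyte list, Cd79b were chosen after seeing the data.

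The count of the 10 genes called in macrophages for treatment over genotypes was 1, and it was 0 without a pool term, with a minimum of 50 cells, with the margin hashtag rule, without Scrublet doublets and without cluster 15, and from 0 to 1 without 1 mouse. Without the low-count filter the counts in macrophages were 5 (genotype with anti-PD-1), 7 (treatment in floxed), 1 (treatment in LysM-Cre), 5 (interaction), 3 (treatment over genotypes) and 4 (genotype over treatments), and in monocytes 2 (treatment in floxed) and 4 (treatment over genotypes), with fold changes nearly as before. There the prior degrees of freedom of edgeR went from 5.82 to infinite in macrophages, so that single genes' spread was ignored. Calls over all genes for genotype with anti-PD-1 went from 0 to 297 of 17660. For the other macrophage comparisons, in the order given, they were 424, 181, 143, 560 and 237 of 17660. In monocytes they were 527 and 560 of 17509.

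Signs turned for small changes. In macrophages with anti-PD-1, the genotype change of H2-DMb2 was -0.0087 with a minimum of 50 cells, -0.14 without shared barcodes and from -0.26 to 0.43 without 1 mouse, and that of H2-Oa was -0.69 without shared barcodes and from -1.14 to 0.95 without 1 mouse. The treatment change of H2-DMb1 in floxed macrophages was 0.089 with a minimum of 50 cells, 0.090 with the margin hashtag rule, 0.078 without cluster 15 and from -0.33 to 0.10 without 1 mouse.

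For I-A/I-E in macrophages, the treatment change in floxed mice was 0.022 with DESeq2, 0.31 with a minimum of 50 cells and 0.30 relative to rat IgG2b (an isotype control antibody). Over genotypes it was 3.26e-05 with DESeq2 and 0.033 with a minimum of 50 cells. The interaction was 0.023 with library size only, 0.13 with the margin hashtag rule, 0.041 without Scrublet doublets, 0.049 without shared barcodes and 0.0093 without cluster 15. In intermediate cells, the genotype change with anti-PD-1 was 0.10 with the margin rule and 0.15 relative to rat IgG2b, the treatment change in LysM-Cre mice was -0.25 relative to rat IgG2b, the interaction was 0.058 with the margin rule, and the genotype change over treatments was -0.0061 without Scrublet doublets and -0.013 without cluster 4. In monocytes, the genotype change with isotype was -0.025 with a minimum of 50 cells, and relative to rat IgG2b the treatment change was 0.48 in LysM-Cre mice and 0.031 over genotypes.

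Without 1 mouse, I-A/I-E changes in macrophages ran from -0.38 to 0.28 (treatment in floxed), -0.44 to 0.14 (treatment in LysM-Cre), -0.38 to 0.29 (interaction) and -0.25 to 0.13 (treatment over genotypes). In intermediate cells they ran from -0.38 to 0.065 (genotype with anti-PD-1), -0.016 to 0.37 (treatment in LysM-Cre) and -0.075 to 0.15 (genotype over treatments). In monocytes they ran from -0.014 to 0.36 (genotype with isotype), -0.23 to 0.58 (genotype with anti-PD-1), -0.76 to 0.059 (treatment in LysM-Cre), -0.39 to 0.42 (interaction) and -0.039 to 0.37 (genotype over treatments).

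The relation of H2-Ab1 to I-A/I-E in monocytes had r = 0.70 within pool E5 (exact permutation p = 0.0537). Differences in the share of cells with a UMI turned sign for treatment in floxed macrophages without thinning (H2-Ab1 2.93 points, Cd74 0.361 points), and for genotype with anti-PD-1 in monocytes (H2-Ab1 0.137 points at 1000 UMIs and 0.377 points without thinning, Cd74 -0.507 points at 1000 UMIs). Of 727 recomputed changes of the 10 genes 684 kept their direction and side of the threshold, as did 492 of 543 for I-A/I-E. The former cover all 10 genes in macrophages for genotype with anti-PD-1 and treatment in floxed. They also cover some of the genes in other macrophage comparisons, and H2-Ab1 and Ciita in cDC2 cells, but no intermediate cells or monocytes. Only H2-Oa for treatment over genotypes was called at first, so elsewhere keeping the side means staying uncalled. The cause of the shifts in this section was not tested.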
